A study of Rattus norvegicus with 12 samples.

Results

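The genes described here are those of the rat major histocompatibility complex (MHC, named RT1 in the rat) together with the genes that load peptides onto MHC molecules or switch MHC transcription on. They were taken by name: every gene whose symbol starts with RT1-, plus B2m, Tap1, Tap2, Tapbp, Psmb8, Psmb9, Psmb10, Ciita, Nlrc5 and Cd74. The rule gave 40 of the 19730 genes in the table, 30 named RT1- and 10 others, and 35 of them lay on chromosome 20. RNA of whole ovaries was sequenced from wild type female Sprague Dawley rats aged 15 weeks after birth, with 1 library per rat and 4 rats in each of 3 groups. Control rats were untreated and ate standard food. The PCOS group received letrozole, an inhibitor of the aromatase that turns androgen into oestrogen, by mouth for 30 days with a high-fat diet, as a model of polycystic ovary syndrome, and its rats were kept in the study on the basis of vaginal smears that stayed in metestrus and diestrus. The PCOS-MV group had the same letrozole and diet and then mogroside V, a sweet triterpene glycoside of monk fruit, by gavage for 30 days. By the study's schedule all rats were killed at the end of the mogroside V period. The PCOS ovaries were thus taken about 30 days after letrozole had ended. Sprague Dawley rats are an outbred stock, so rats of 1 group need not carry the same RT1 alleles.

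MHC class I molecules stand on the surface of most nucleated cells as a heavy chain paired with B2m, and show CD8 T cells peptides made inside the cell. Those peptides are cut by the proteasome, in which Psmb8, Psmb9 and Psmb10 can take the place of the standard catalytic subunits to form the immunoproteasome, are carried into the endoplasmic reticulum by Tap1 and Tap2, and are held at the empty heavy chain by Tapbp (tapasin). MHC class II molecules are found mainly on dendritic cells, macrophages and B cells, are pairs of an alpha and a beta chain, are guided by the invariant chain Cd74, and show CD4 T cells peptides from endocytosed protein. Nlrc5 is the transactivator of class I genes and Ciita that of class II genes. Both act through a shared promoter module of S, X and Y boxes, and class I and antigen processing promoters often also hold an interferon response element.

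The promoters of these genes are shown first because the members belong to these 2 transcription systems. Each line gives the 250 bases before the transcription start of a RefSeq gene on the rat reference assembly GRCr8, 5′ to 3′ on the strand of the gene. Capitals mark matches, on either strand, to ATTGG (the core of the Y box), TGACG (a core of the X2 part of the X box) and GAAANNGAA. The last is 1 form of the core of an interferon response element. Other forms of that element were not searched, so a window without this match may still hold one. Where matches overlap or touch, the capitals run on. B2m, RT1-M3-1 and RT1-A2 encode class I parts, RT1-N2 and RT1-N3 class I chains called in both comparisons with the PCOS group, Psmb10 and Tapbp belong to processing and loading, and RT1-Ba and RT1-Da are alpha chains of class II. The windows shown are examples and not a random draw from the members. Psmb8 and Psmb9, which are not shown, held 0 matches to GAAANNGAA within their 250 bases. Of 7 promoters of tested class II pathway genes, 1 held TGACG, that of RT1-Ba.
B2m, chr3:129549080-129549329, plus strand: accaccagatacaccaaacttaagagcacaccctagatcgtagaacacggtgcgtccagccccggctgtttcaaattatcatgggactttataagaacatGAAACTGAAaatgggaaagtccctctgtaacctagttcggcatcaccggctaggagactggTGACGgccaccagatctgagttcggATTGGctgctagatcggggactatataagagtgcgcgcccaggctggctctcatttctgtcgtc
RT1-M3-1, chr20:1333367-1333616, minus strand: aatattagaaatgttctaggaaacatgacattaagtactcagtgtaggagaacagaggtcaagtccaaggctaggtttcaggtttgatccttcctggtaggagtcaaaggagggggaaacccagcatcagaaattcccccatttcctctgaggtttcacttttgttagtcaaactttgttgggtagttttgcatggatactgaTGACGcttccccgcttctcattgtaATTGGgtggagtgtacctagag
RT1-A2, chr20:4872621-4872870, plus strand: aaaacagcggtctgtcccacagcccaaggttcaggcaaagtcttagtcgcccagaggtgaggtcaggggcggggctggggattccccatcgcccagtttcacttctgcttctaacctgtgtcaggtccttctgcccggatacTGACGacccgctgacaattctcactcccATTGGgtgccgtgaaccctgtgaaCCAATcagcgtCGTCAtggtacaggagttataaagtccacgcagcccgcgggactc
RT1-N2, chr20:2646080-2646329, plus strand: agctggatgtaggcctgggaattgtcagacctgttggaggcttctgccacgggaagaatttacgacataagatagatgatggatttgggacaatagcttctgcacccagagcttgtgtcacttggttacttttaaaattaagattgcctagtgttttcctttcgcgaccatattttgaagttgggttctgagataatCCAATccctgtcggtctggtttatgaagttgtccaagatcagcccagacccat
RT1-N3, chr20:2666239-2666488, plus strand: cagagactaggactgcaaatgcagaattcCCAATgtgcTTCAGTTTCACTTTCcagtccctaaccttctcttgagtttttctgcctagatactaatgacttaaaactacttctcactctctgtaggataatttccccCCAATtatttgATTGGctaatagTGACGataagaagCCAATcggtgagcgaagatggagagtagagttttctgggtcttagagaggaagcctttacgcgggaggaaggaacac
Psmb10, chr19:50743293-50743542, minus strand: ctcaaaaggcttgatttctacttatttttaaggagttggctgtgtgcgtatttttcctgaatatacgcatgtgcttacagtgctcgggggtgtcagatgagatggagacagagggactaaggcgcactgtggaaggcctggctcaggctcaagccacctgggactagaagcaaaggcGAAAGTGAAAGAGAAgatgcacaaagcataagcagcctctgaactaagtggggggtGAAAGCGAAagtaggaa
Tapbp, chr20:4967878-4968127, minus strand: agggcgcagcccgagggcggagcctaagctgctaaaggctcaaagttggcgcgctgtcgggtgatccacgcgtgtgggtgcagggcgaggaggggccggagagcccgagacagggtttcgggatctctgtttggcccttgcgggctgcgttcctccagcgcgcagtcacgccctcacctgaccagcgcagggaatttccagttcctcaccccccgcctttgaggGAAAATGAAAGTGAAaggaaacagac
RT1-Ba, chr20:4576807-4577056, plus strand: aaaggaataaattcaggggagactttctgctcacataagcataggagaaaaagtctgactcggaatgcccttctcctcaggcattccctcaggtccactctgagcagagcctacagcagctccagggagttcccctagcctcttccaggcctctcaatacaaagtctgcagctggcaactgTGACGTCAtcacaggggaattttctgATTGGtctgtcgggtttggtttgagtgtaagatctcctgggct
RT1-Da, chr20:4515165-4515414, plus strand: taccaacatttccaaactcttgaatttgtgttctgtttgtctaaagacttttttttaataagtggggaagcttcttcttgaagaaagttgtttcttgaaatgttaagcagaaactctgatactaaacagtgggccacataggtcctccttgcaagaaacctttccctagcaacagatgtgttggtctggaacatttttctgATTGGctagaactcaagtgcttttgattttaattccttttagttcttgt

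Of the 40 members, 35 had a promoter in the RefSeq table. ATTGG stood in 25 of those 35 windows, against 34.0% of all 33469 promoters searched in the same way. TGACG stood in 8 of the 35, against 18.2% of all promoters. GAAANNGAA also stood in 8 of the 35, against 8.1% of all promoters. Among members with a promoter that passed the expression filter, all 7 of the class II pathway held ATTGG and 0 of the 7 held GAAANNGAA. In the class I pathway 14 of 22 held ATTGG and 7 of 22 held GAAANNGAA. In B2m, TGACG began 89 bases and ATTGG 64 bases before the start, on the same strand. The same order, with ATTGG beginning 20 to 30 bases after TGACG on 1 strand, was found in 5 of the 35 members (B2m, RT1-M3-1, RT1-A1, RT1-A2 and RT1-Ba) and in 0.3% of all promoters. This spacing was chosen after the sequences had been seen. The starts of Tap1 and Psmb9 lay 456 bases apart on opposite strands, so 1 stretch of chromosome 20 precedes both genes. A match is a description of these letters in the reference assembly and not of a bound site in these ovaries.

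Expression was given as FPKM, fragments per kilobase of transcript scaled to the number of mapped fragments, so levels can be compared between genes per unit of length. The FPKM of a library summed to between 339830 and 373758, and 17576 to 18247 genes were above 0. Depth in reads was unknown, and from the smallest steps between values the libraries differed in relative depth from 0.919 to 1.12 times that of control replicate 1. A gene entered the tests when its mean over the 12 libraries was at least 1 FPKM. This left 13430 genes, 34 of them members. Fold changes are differences of mean log2(FPKM + 1), which understates changes of low genes, and a gene is said to have risen or fallen where limma gave a Benjamini-Hochberg adjusted p under 0.05 over all 13430 genes. Over all those genes the median log2 fold change was -0.03 for PCOS against control, 0.03 for PCOS-MV against PCOS and close to 0 for PCOS-MV against control.

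Of the 6 members that were not tested, RT1-M6-2 reached 1.34 FPKM in PCOS replicate 3 and RT1-DOa 1.22 FPKM in PCOS replicate 2. The other 4 stayed under 1 FPKM in every library and each was listed at exactly 0 in at least 1 library: RT1-Db2 in 9 libraries, RT1-M5 in 8, RT1-S2 in 3 and RT1-Ha in 1. Whether their reads were shared with near-identical copies was not tested. None of the 34 tested members was listed at 0. Read sharing also bears on the higher class I chains, because 9 members, 8 of them tested, overlapped another member on the same strand in the deposited coordinates. RT1-A2, at positions 5374985 to 5378539 of chromosome 20, lay inside the listed span of RT1-A1, and the spans of RT1-CE1 and RT1-CE4 took in those of RT1-CE3, RT1-CE5 and RT1-CE7. The genome build of those coordinates is not given in the sources used here, and single values of these chains are uncertain.

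Compared with the control group, 15 of the 25 tested genes of the class I pathway rose in the PCOS ovaries, and 0 of the 9 tested genes of the class II pathway passed the test. B2m rose 2.21-fold, the 3 immunoproteasome subunits rose 2.11- to 3.44-fold as ratios of mean FPKM, and RT1-N2 rose 10.4-fold. Of the 34 members tested 15 rose and 0 fell, against a background of 11.9% of all tested genes that rose and 15.6% that fell. The 15 were 44.1% of the members tested, and all of them belonged to the 25 class I pathway genes (heavy chains, B2m, peptide loading, immunoproteasome and Nlrc5). The median log2 fold change was 0.49 over the 34 members and 0.66 over those 25. In 14 members every PCOS library lay above every control library, against 13.8% of all tested genes.

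**Figure D1:**
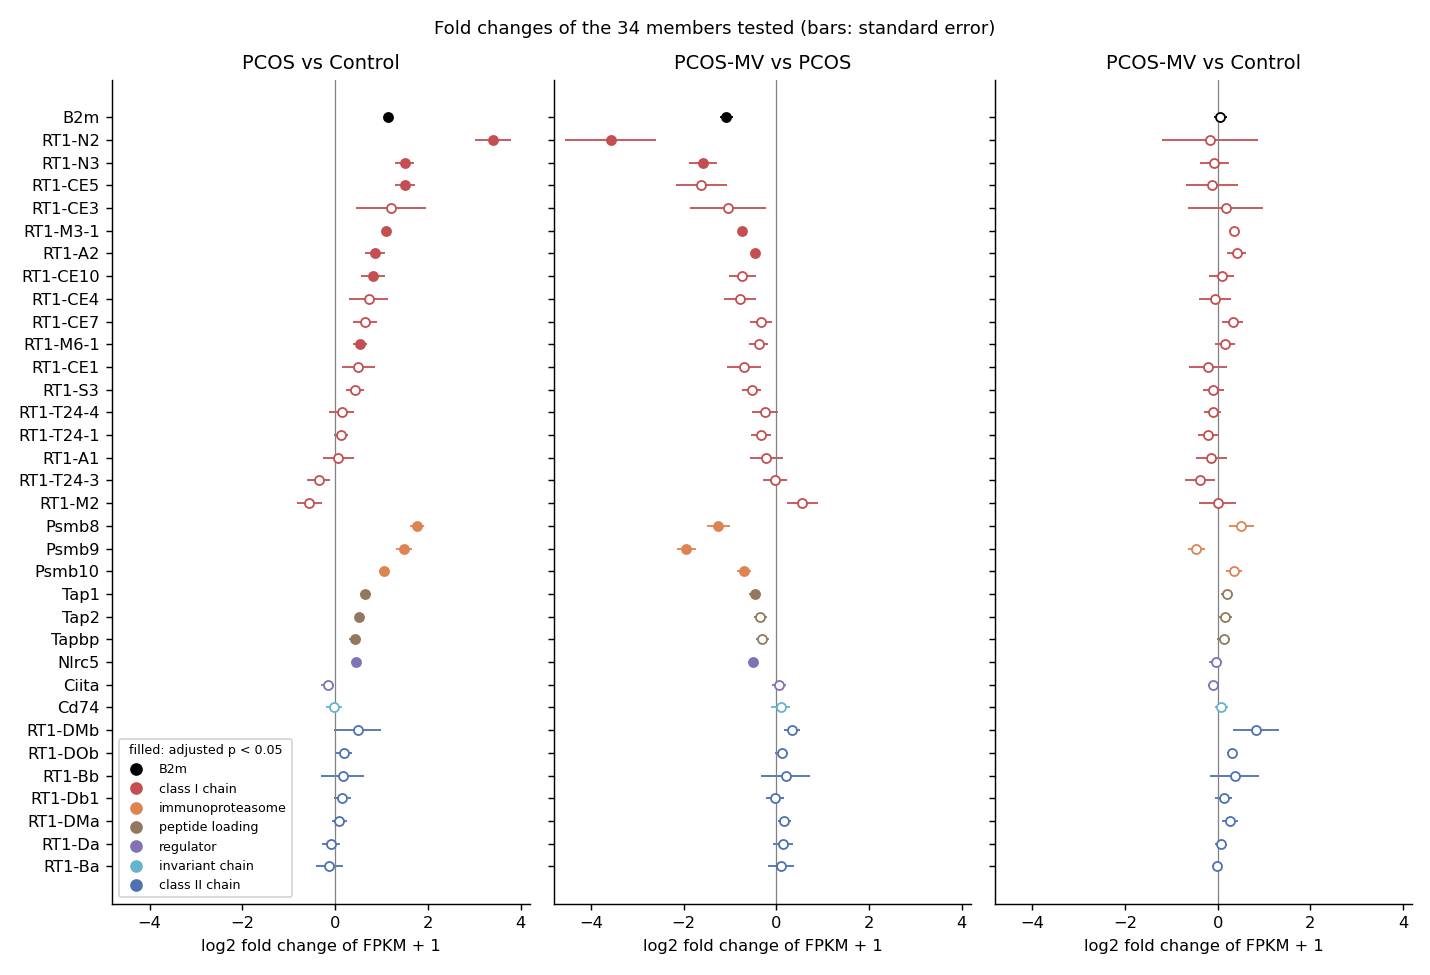
Log2 fold change of FPKM + 1 with its standard error (horizontal axis) for each of the 34 tested members (rows), coloured by role, in the 3 comparisons, with filled symbols where the adjusted p was under 0.05. In the left panel 15 class I pathway members are filled to the right of 0, in the middle panel 10 are filled to the left, and no symbol is filled in the right panel or among the class II chains.

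B2m, the light chain of every class I molecule, was listed at 242, 229, 215 and 220.5 FPKM in control replicates 1 to 4. In the PCOS libraries it was 456, 544, 505 and 497 FPKM, and in the PCOS-MV libraries 213, 299, 249 and 194 FPKM. The PCOS values stood apart from all 8 others, whose ranges overlapped. Its log2 fold change was 1.14 ± 0.083 SE, adjusted p = 4.21e-05, for PCOS against control, and -1.08 ± 0.14 SE, adjusted p = 0.00112, for PCOS-MV against PCOS. An exact two-sided permutation test of 4 libraries against 4 gave p = 0.0286 for both, the smallest p that this design allows.

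Among heavy chains, 7 of the 17 tested rose in PCOS and 0 fell. RT1-N2, a nonclassical chain, showed the largest fold change. Its control libraries held 18.7, 4.89, 8.25 and 16.8 FPKM and its PCOS libraries 119.6, 90.1, 127 and 169.9 FPKM, a log2 fold change of 3.41 ± 0.38 SE, adjusted p = 3.49e-04. The PCOS-MV libraries held 0.0344, 36.4, 14.6 and 18.8 FPKM, so that replicate 1 of that group was almost without reads of the gene while replicate 2 was above every control library. RT1-N3, encoded close to it on chromosome 20, was at 12.5, 7.04, 7.06 and 10.2 FPKM in control and at 24.99, 22.0, 28.0 and 35.7 FPKM in PCOS libraries, a log2 fold change of 1.51 ± 0.20 SE, adjusted p = 9.23e-04. In PCOS-MV it was at 4.61, 15.2, 8.13 and 8.65 FPKM, with replicates 1 and 2 again the lowest and the highest.

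RT1-M3-1, the rat counterpart of a mouse chain that presents N-formylated peptides, had the smallest standard error of the tested chains in both comparisons with the PCOS group. It was listed at 8.54, 9.61, 9.43 and 8.28 FPKM in control, 19.5, 22.1, 19.5 and 20.1 FPKM in PCOS and 10.2, 11.4, 12.3 and 12.8 FPKM in PCOS-MV libraries. No 2 of the 3 groups overlapped in this gene. Its log2 fold change was 1.10 ± 0.075 SE, adjusted p = 3.00e-05, in PCOS and -0.75 ± 0.085 SE, adjusted p = 6.17e-04, in PCOS-MV against PCOS.

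RT1-A2, a chain of the classical RT1-A region, was at 79.1, 46.1, 68.8 and 99.1 FPKM in control libraries. PCOS libraries held 135, 119, 115 and 150.0 FPKM and PCOS-MV libraries 91.4, 95.7, 105 and 86.5 FPKM. All PCOS libraries lay above all others. The log2 fold change in PCOS was 0.86 ± 0.21 SE, adjusted p = 0.0164, and without PCOS replicate 4 the adjusted p was 0.0509. RT1-CE5, a chain of the RT1-C/E region, went from 36.0 ± 9.52 FPKM (SD, n = 4) in control to 103 ± 23.7 FPKM in PCOS, a log2 fold change of 1.5 ± 0.22 SE, adjusted p = 0.00132. RT1-CE10 (0.82 ± 0.26 SE, adjusted p = 0.0468) and the low RT1-M6-1 (0.54 ± 0.15 SE, adjusted p = 0.0255) also rose. RT1-CE10 was called in 3 and RT1-M6-1 in 4 of the 8 fits that left out 1 library.

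The 10 other tested chains did not pass the test in PCOS against control. The intervals of their log2 fold changes still reached high values in several: 0.06 to 1.24 for RT1-CE7, -0.23 to 1.69 for RT1-CE4, -0.01 to 0.88 for RT1-S3 and -0.50 to 2.93 for RT1-CE3 (95% confidence). RT1-A1, the other chain of the RT1-A region, gave 0.07 with an interval of -0.71 to 0.85. RT1-CE1 gave 0.50, RT1-T24-4 0.14, RT1-T24-1 0.14, RT1-T24-3 -0.35 and RT1-M2 -0.55.

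Because reads of similar chains can be divided differently in each library, the FPKM of the 20 class I chains was also summed. The sum was 329, 259, 324 and 347 in the control libraries and 626, 646, 607 and 693 in the PCOS libraries. In the PCOS-MV libraries it was 297, 438, 317 and 332. The PCOS sums lay above all others, also when RT1-N2 was left out (254 to 330 in control, 479.7 to 556 in PCOS and 297 to 401 in PCOS-MV libraries). RT1-N2 gave 1.89% to 5.69% of the control sum and 13.9% to 24.5% of the PCOS sum. RT1-A2 gave 17.8% to 28.6% of the control sum and 18.5% to 21.7% of the PCOS sum.

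**Figure D2:**
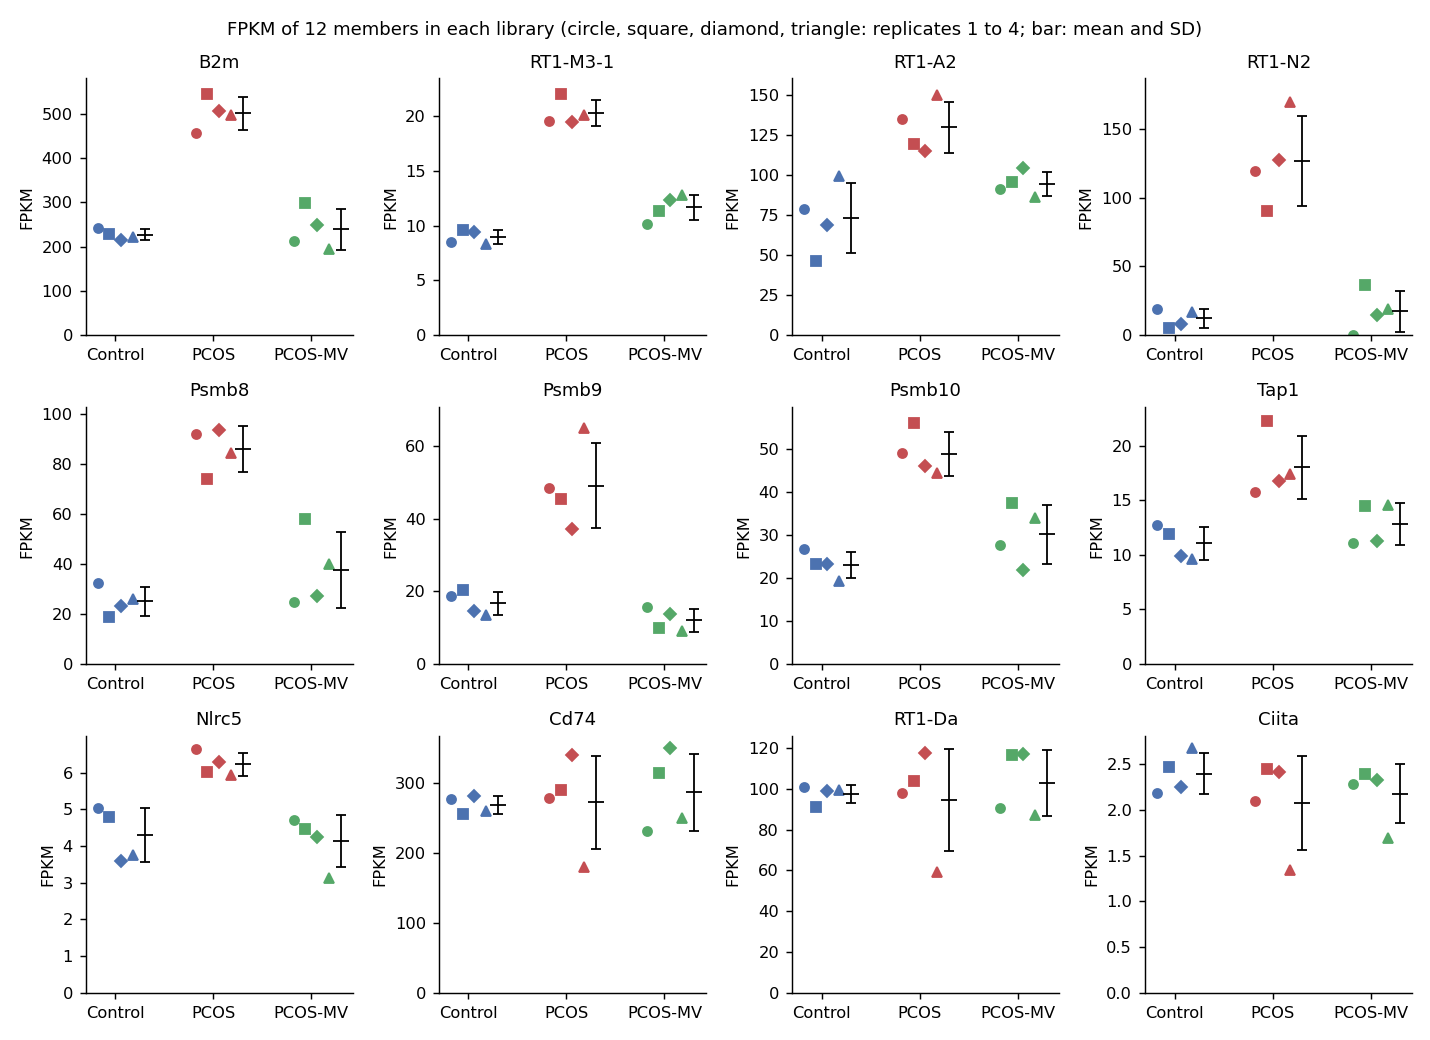
FPKM (vertical axis, from 0) of 12 members in every library of the 3 groups, with the mean and SD of each group beside its points. B2m, RT1-N2, the immunoproteasome subunits and Nlrc5 are above all other libraries in the 4 PCOS libraries, whereas the groups overlap for Cd74, RT1-Da and Ciita.

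All 3 immunoproteasome subunits rose in PCOS. Psmb8 was listed at 32.3, 18.9, 23.0 and 25.8 FPKM in control, 91.9, 73.8, 93.8 and 84.5 FPKM in PCOS and 24.8, 57.9, 27.0 and 40.1 FPKM in PCOS-MV libraries. Its log2 fold change in PCOS was 1.76 ± 0.15 SE, adjusted p = 9.49e-05. PCOS-MV replicate 2, at 57.9 FPKM, was nearest to the PCOS range without entering it.

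Psmb9 was at 18.6, 20.3, 14.5 and 13.6 FPKM in control, 48.6, 45.6, 37.3 and 65.1 FPKM in PCOS and 15.7, 9.80, 13.6 and 9.12 FPKM in PCOS-MV libraries, a log2 fold change of 1.49 ± 0.18 SE, adjusted p = 5.68e-04, in PCOS. Its lowest 2 values of the 12 were PCOS-MV libraries. Psmb10, which lies on chromosome 19 outside the MHC, was at 26.8, 23.2, 23.2 and 19.4 FPKM in control, 49.1, 56.1, 46.1 and 44.4 FPKM in PCOS and 27.7, 37.4, 21.8 and 34.0 FPKM in PCOS-MV libraries. Its log2 fold change was 1.05 ± 0.11 SE, adjusted p = 2.55e-04.

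Of the standard subunits that these 3 replace, 0 passed the test upwards. Psmb5, the counterpart of Psmb8, had a log2 fold change of -0.16 ± 0.097 SE, adjusted p = 0.266, and Psmb6, the counterpart of Psmb9, one of -0.01 ± 0.10 SE, adjusted p = 0.948. Psmb7, the counterpart of Psmb10, fell (-0.47 ± 0.12 SE, adjusted p = 0.0161). The ratio of Psmb8 to Psmb5 FPKM was 0.202 to 0.293 in control, 0.812 to 1.20 in PCOS and 0.229 to 0.5196 in PCOS-MV libraries. For Psmb9 to Psmb6 it was 0.186 to 0.276, 0.537 to 0.816 and 0.101 to 0.222, and for Psmb10 to Psmb7 it was 0.137 to 0.192, 0.413 to 0.506 and 0.177 to 0.268. No PCOS ratio overlapped those of the other groups.

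All 3 peptide loading genes rose. Tap1 was at 12.8, 11.9, 9.91 and 9.66 FPKM in control, 15.7, 22.2, 16.8 and 17.4 FPKM in PCOS and 11.1, 14.5, 11.3 and 14.6 FPKM in PCOS-MV libraries, with a log2 fold change of 0.66 ± 0.13 SE, adjusted p = 0.00575. Tap2 was at 7.61, 7.79, 8.68 and 8.499 FPKM in control and 13.3, 11.2, 10.9 and 12.9 FPKM in PCOS libraries (0.52 ± 0.086 SE, adjusted p = 0.00280). Tapbp rose from 59.9 ± 8.57 to 81.2 ± 12.1 FPKM (SD, n = 4), a log2 fold change of 0.43 ± 0.13 SE, adjusted p = 0.0430. Its groups overlapped, the exact permutation test gave p = 0.0571, and the call remained in 2 of the 8 fits that left out 1 library. Nlrc5, the class I transactivator, was at 5.04, 4.80, 3.59 and 3.75 FPKM in control, 6.64, 6.03, 6.29 and 5.94 FPKM in PCOS and 4.71, 4.46, 4.25 and 3.13 FPKM in PCOS-MV libraries. It rose by 0.46 ± 0.11 (SE) on the log2 scale (adjusted p = 0.0138), and its PCOS libraries were above all 8 others.

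In the class II pathway 0 of 9 tested genes were called in PCOS against control, where 11.9% of all tested genes rose and 15.6% fell. An unadjusted limma p under 0.05 was found in 0 of 9, against 5285 of all 13430 genes. Cd74, the invariant chain, was among the most abundant members at 277, 256, 281 and 261 FPKM in control libraries. PCOS libraries held 279, 289.8, 340.5 and 180.2 FPKM and PCOS-MV libraries 232, 315, 350.1 and 249.8 FPKM. Of the PCOS values, 3 were above the control mean of 269 and replicate 4 was the lowest of all 12 libraries. The log2 fold change was -0.02 with a 95% interval of -0.42 to 0.39, which lay below the whole interval of B2m (0.95 to 1.33).

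RT1-Da, the alpha chain of the RT1-D molecule, was at 101, 90.9, 99.0 and 99.4 FPKM in control, 97.9, 104, 118 and 59.3 FPKM in PCOS and 90.5, 116, 117 and 87.1 FPKM in PCOS-MV libraries, with an interval of -0.52 to 0.35 for PCOS against control. RT1-Db1, a beta chain of the same molecule, gave 0.16 with an interval of -0.25 to 0.57. RT1-Ba, the alpha chain of the RT1-B molecule, was at 26.9, 30.6, 30.0 and 24.1 FPKM in control and 32.4, 33.6, 30.4 and 12.5 FPKM in PCOS libraries, an interval of -0.77 to 0.53. PCOS replicate 4 was again far below the rest of its group.

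Peptide exchange on class II molecules is catalysed by the DM chains and tempered by the DO chains. RT1-DMa gave an interval of -0.30 to 0.49, RT1-DOb one of -0.18 to 0.57, and RT1-DMb a wide one of -0.66 to 1.64, with control replicate 4 at 0.721 FPKM. RT1-Bb, the beta chain of the RT1-B molecule, gave -0.88 to 1.21. The intervals of RT1-DMb and RT1-Bb overlapped that of B2m, and those of the 7 other class II pathway genes lay below it. Ciita was at 2.18, 2.47, 2.25 and 2.67 FPKM in control, 2.10, 2.45, 2.41 and 1.34 FPKM in PCOS and 2.28, 2.40, 2.33 and 1.69 FPKM in PCOS-MV libraries, with an interval of -0.48 to 0.16. PCOS replicate 4 was the lowest library of its group in 8 of the 9 class II pathway genes. Without it the log2 fold change of Cd74 was 0.17, that of RT1-Da 0.12 and that of RT1-Ba 0.20, none of them called.

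The ratio of B2m to Cd74 set the 2 pathways side by side in each library. It was 0.873, 0.894, 0.764 and 0.846 in control, 1.63, 1.88, 1.48 and 2.76 in PCOS and 0.919, 0.949, 0.712 and 0.775 in PCOS-MV libraries. The summed FPKM of the 10 class II chains was 161 to 176 in control, 110.5 to 205 in PCOS and 172 to 203 in PCOS-MV libraries, so the PCOS range enclosed that of both other groups. PCOS replicate 4 gave the highest ratio and the lowest class II sum. The next lowest PCOS sum was 179.6.

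**Figure D3:**
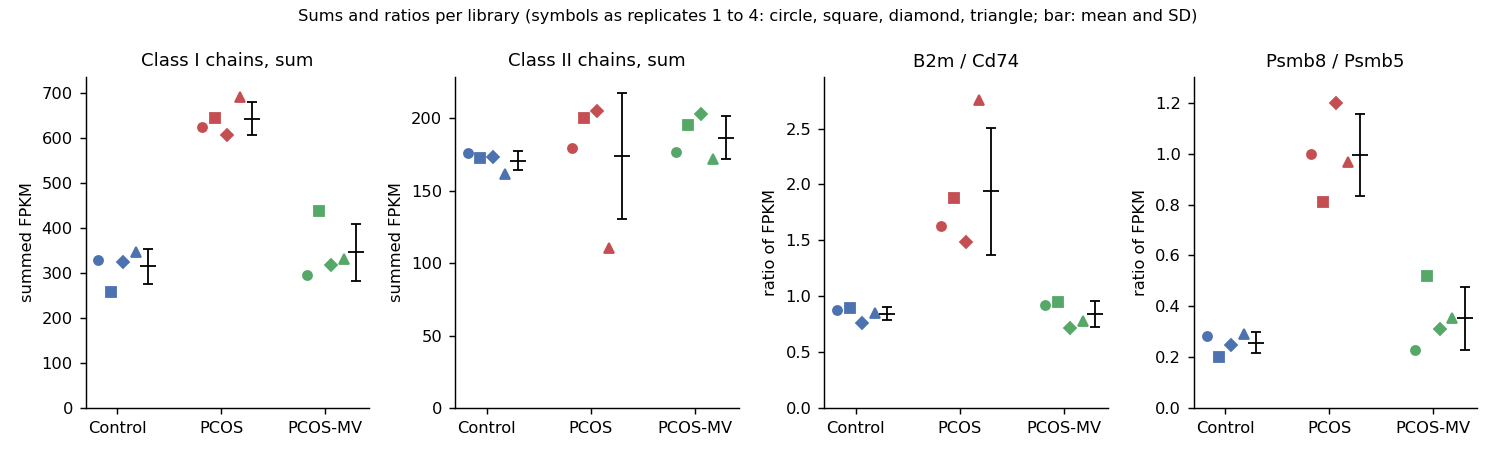
Summed FPKM of the 20 class I chains and of the 10 class II chains, and the ratios of B2m to Cd74 and of Psmb8 to Psmb5, in each library with the group mean and SD. The class I sum was 607 to 693 in PCOS libraries and at most 438 in all others, while the class II sums of the 3 groups overlapped.

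Compared with the PCOS group, 10 of the 34 tested members fell and 0 rose in the PCOS-MV group, against a background of 11.4% of all tested genes that fell and 14.3% that rose. The 10 were 29.4% of the members tested, and the median log2 fold change of the 34 was -0.36. The same 4 PCOS libraries entered this comparison and the one with the control group, so a high PCOS value acts on both, and each comparison is given by its own values. In 10 members every PCOS-MV library lay below every PCOS library, against 13.3% of all tested genes.

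The members that fell were B2m, 4 heavy chains (RT1-A2, RT1-N2, RT1-N3 and RT1-M3-1), the 3 immunoproteasome subunits, Tap1 and Nlrc5. Psmb9 had a log2 fold change of -1.94 ± 0.20 SE, adjusted p = 4.78e-04, and Psmb8 one of -1.25 ± 0.24 SE, adjusted p = 0.00735. Psmb10 also fell (-0.70 ± 0.16 SE, adjusted p = 0.0143). RT1-N3 fell to 0.330 of its PCOS mean (-1.58 ± 0.29 SE, adjusted p = 0.00576). RT1-A2 (-0.45 ± 0.10 SE, adjusted p = 0.0143), Tap1 (-0.46 ± 0.13 SE, adjusted p = 0.0355) and Nlrc5 (-0.50 ± 0.11 SE, adjusted p = 0.0120) had the smallest of the 10 changes. With 1 model for all 12 libraries the adjusted p of RT1-A2 in this comparison was 0.104.

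RT1-N2 gave -3.58 ± 0.97 SE, adjusted p = 0.0277, with a large error and with PCOS-MV replicate 1 near 0. The call was lost in each of the 4 fits that left out a PCOS library and, with a pseudocount of 0.1, the adjusted p was 0.0741. Tap1 was called in 3 of the 8 fits that left out 1 library. RT1-CE5, which varied widely in PCOS-MV (11.96, 104, 32.5 and 25.8 FPKM), gave -1.62 ± 0.55 SE, adjusted p = 0.0599. Its replicate 2 stood within the PCOS range of 76.97 to 133 FPKM and the other 3 below it. Leaving out PCOS-MV replicate 2 raised the count of members that fell from 10 to 15, adding RT1-CE5, RT1-CE10, RT1-S3, RT1-T24-1 and Tap2.

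Of the 9 class II pathway genes 0 were called in this comparison, where 14.3% of all tested genes rose and 11.4% fell. An unadjusted limma p under 0.05 was found in 0 of the 9, against 5173 of all 13430 genes. The 95% interval was -0.39 to 0.57 for Cd74, -0.33 to 0.63 for RT1-Da, -0.54 to 0.74 for RT1-Ba and -0.27 to 0.39 for Ciita. The intervals of 8 of the 9 lay above the whole interval of B2m (-1.40 to -0.76), and that of RT1-Bb (-1.01 to 1.42) overlapped it. With no filter on low values RT1-DOa, the alpha chain of the DO molecule at 0.944 to 1.22 FPKM in PCOS and 0.846 to 0.891 FPKM in PCOS-MV libraries, was called lower (log2 fold change of -0.18 ± 0.048 SE, adjusted p = 0.0435 by limma).

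Between the PCOS-MV and control groups 0 of the 34 members were called in either direction, against 0.00745% of all tested genes that were higher (1 gene) and 0% that were lower. At an unadjusted limma p under 0.05 there were 3 members, against 1142 of the 13430 genes. They were RT1-M3-1 (0.34, adjusted p = 0.480), RT1-DOb (0.31, adjusted p = 0.556) and Psmb9 (-0.46, adjusted p = 0.576). The 4 PCOS-MV libraries of RT1-M3-1 were all above the 4 controls. For the others the interval of the difference bounds what remained: -0.26 to 0.37 for B2m, -0.12 to 1.14 for Psmb8, -0.04 to 0.74 for Psmb10, -0.10 to 0.49 for Tap1, -0.07 to 0.89 for RT1-A2 and -0.37 to 0.28 for Nlrc5. It was wide, and so bounded little, for RT1-N2 (-2.54 to 2.20), RT1-CE5 (-1.40 to 1.16) and RT1-N3 (-0.79 to 0.64).

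Values of some RT1 chains divided the libraries across the groups. RT1-CE3 was listed at 5.25, 0.301, 0.495 and 4.79 FPKM in control, 8.59, 0.714, 9.70 and 10.6 FPKM in PCOS and 0.449, 6.996, 6.35 and 0.326 FPKM in PCOS-MV libraries. Thus 5 libraries were at 0.714 FPKM or less and 7 at 4.79 FPKM or more, with no value between. RT1-A1 was at 36.2, 65.7, 82.7 and 48.6 FPKM in control, 44.0, 110.3, 42.3 and 57.1 FPKM in PCOS and 75.8, 36.4, 34.5 and 67.4 FPKM in PCOS-MV libraries. The 5 libraries lowest in RT1-CE3 (control 2 and 3, PCOS 2, PCOS-MV 1 and 4) were the 5 highest in RT1-A1. RT1-Bb was at 4.38, 15.3, 4.97 and 9.04 FPKM in control, 4.81, 20.1, 6.88 and 7.60 FPKM in PCOS and 20.6, 3.86, 7.16 and 15.9 FPKM in PCOS-MV libraries. Its 5 highest libraries shared 4 with the 5 lowest in RT1-CE3. Those of RT1-CE7 shared only 3, and the last of its 5 highest values, 27.07 FPKM, hardly differed from the next, 27.0 FPKM. The chains set beside RT1-CE3 were not fixed in advance, and the sharing of libraries was not tested. RT1-CE3, RT1-A1 and RT1-Bb were not called in any of the 3 comparisons. The RT1 alleles of each rat and the division of reads among copies were not tested.

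**Figure D4:**
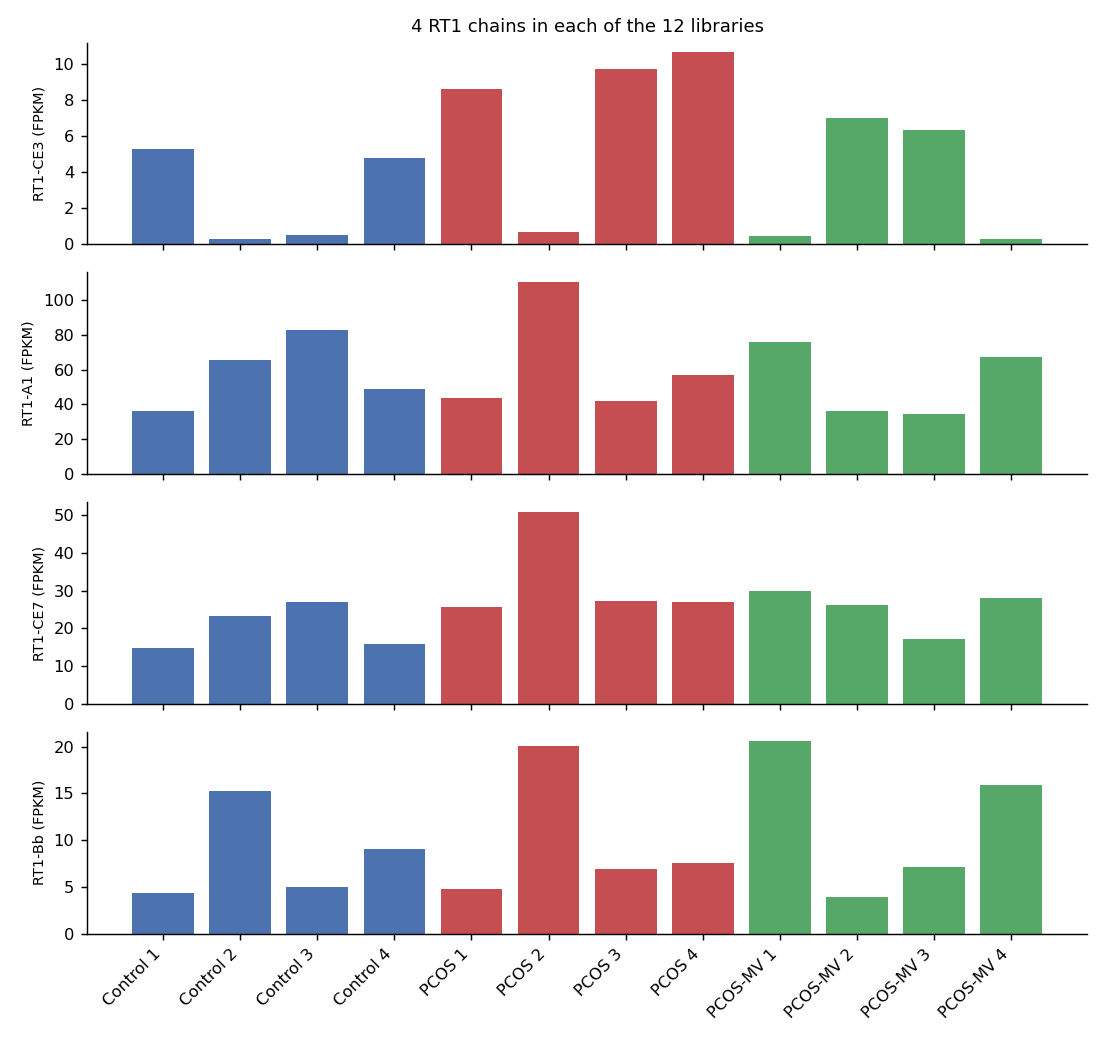
FPKM (vertical axes, from 0) of RT1-CE3, RT1-A1, RT1-CE7 and RT1-Bb in each of the 12 libraries, coloured by group. Control 2 and 3, PCOS 2 and PCOS-MV 1 and 4 are near 0 in RT1-CE3 and are the 5 highest libraries in RT1-A1.

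The same counts were made for the genes around the members. Of the 92 tested genes that are no members but lie between the first and the last member on chromosome 20 (154074 to 5476193), 14.1% rose and 8.7% fell in PCOS against control, and 7.6% rose and 13.0% fell in PCOS-MV against PCOS. Their median log2 fold changes were 0.01 and 0.02.

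Partners of the 2 pathways were called in both directions. Of all tested genes 11.9% rose and 15.6% fell in PCOS, and 14.3% rose and 11.4% fell in PCOS-MV against PCOS. Among 15 class I partners 2 rose and 2 fell in PCOS. Tapbpl, a tapasin-like editor of class I peptides, rose by 0.68 ± 0.11 (SE, adjusted p = 0.00215), Erap1, the aminopeptidase that trims peptides in the endoplasmic reticulum, rose (0.42 ± 0.094 SE, adjusted p = 0.0108), and Psmb7 and the glycoprotein folding sensor Uggt1 fell. In PCOS-MV against PCOS 5 of the 15 rose and 2 fell, the latter being Psme1 (-0.48 ± 0.12 SE, adjusted p = 0.0188), a proteasome activator subunit, and Erap1 (-0.36 ± 0.089 SE, adjusted p = 0.0196). Of 12 class II partners, which are mostly lysosomal proteases, 1 rose and 2 fell in PCOS, and 3 rose and 2 fell in PCOS-MV. Cathepsin H (Ctsh) rose in PCOS (0.91 ± 0.068 SE, adjusted p = 4.66e-05) and fell in PCOS-MV (-1.09 ± 0.12 SE, adjusted p = 6.60e-04). Of 8 factors that serve class II promoters, such as Rfx5 and Creb1, 0 were called in any comparison. Class I-like genes encoded outside the MHC gave 1 of 5 higher (Fcgrt, the neonatal Fc receptor) and 2 lower (Procr and Cd1d1) in PCOS.

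Interferon genes were read out beside these, as interferons are the best known inducers of class I genes, of the immunoproteasome and of Nlrc5. Of 17 tested interferon signalling genes 3 rose and 1 fell in PCOS, against 11.9% and 15.6% of all tested genes. Irf1, a transcription factor that binds interferon response elements, was at 18.6, 18.5, 18.1 and 16.8 FPKM in control, 30.3, 37.5, 33.4 and 28.3 FPKM in PCOS and 18.3, 25.01, 21.9 and 22.3 FPKM in PCOS-MV libraries (0.81 ± 0.092 SE, adjusted p = 4.06e-04). Stat2 rose as well (0.60 ± 0.10 SE, adjusted p = 0.00275). The receptor chain Ifngr1 fell (-0.43 ± 0.087 SE, adjusted p = 0.00755), and Ifng itself was at most 0.177 FPKM in any library and was not tested.

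Of 19 tested interferon-induced genes 6 rose and 0 fell in PCOS, against 11.9% and 15.6% of all tested genes, with a median log2 fold change of 0.37. Gbp2, a guanylate-binding GTPase, gave 0.80 ± 0.12 SE, adjusted p = 0.00140, Gbp5 gave 0.92 ± 0.14 SE, adjusted p = 0.00201, and the chemokine Cxcl9 gave 0.61 ± 0.12 SE, adjusted p = 0.00552. Against PCOS, 2 of the 19 fell in PCOS-MV, close to the 11.4% of all tested genes that fell. They were Gbp5 (-0.74 ± 0.17 SE, adjusted p = 0.0129) and Herc6 (-0.53 ± 0.16 SE, adjusted p = 0.0377). Of the signalling genes 4 fell, among them Jak2 (-0.78 ± 0.12 SE, adjusted p = 0.00236) and Irf1 (-0.55 ± 0.12 SE, adjusted p = 0.0104), and 1 rose. Of all tested genes 14.3% rose in that comparison. Most of the 19 were not called in either comparison. The part of interferon in the change of the class I pathway was not tested.

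**Figure D5:**
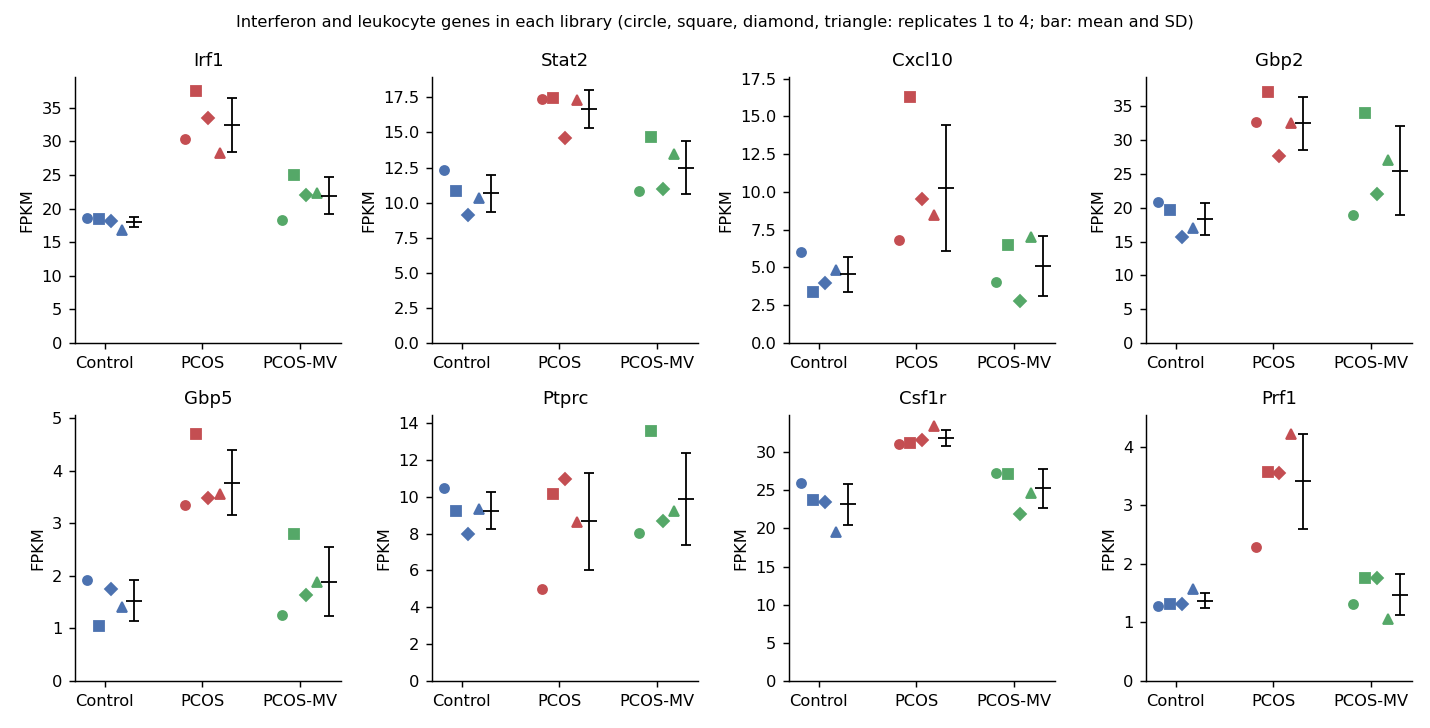
FPKM (vertical axis, from 0) of 5 interferon genes and 3 leukocyte genes in every library with the group mean and SD. Irf1, Stat2, Csf1r and Prf1 are higher in the 4 PCOS libraries than in all controls, while the groups overlap for Ptprc. Csf1r does not stand for its list: 2 of 13 macrophage markers rose in PCOS, and their median log2 fold change was 0.02.

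Markers of the cells that an ovary can hold moved with the groups as well. Their counts stand against 11.9% of all tested genes that rose and 15.6% that fell in PCOS. For PCOS-MV against PCOS those shares were 14.3% and 11.4%. In bulk RNA, fewer cells of a type and less RNA per cell cannot be told apart. Of 8 general leukocyte markers 0 were called in PCOS against control, with summed FPKM of 66.3 to 82.5 in control, 63.97 to 83.1 in PCOS and 73.6 to 107 in PCOS-MV libraries. Against PCOS, 2 of the 8 rose in PCOS-MV, Itgb2 (0.60 ± 0.10 SE, adjusted p = 0.00428) and Vav1 (0.38 ± 0.12 SE, adjusted p = 0.0449). Ptprc (CD45) was at 10.5, 9.21, 8.01 and 9.33 FPKM in control and 5.02, 10.1, 10.96 and 8.61 FPKM in PCOS libraries. Of the T and NK cell markers 4 of 9 tested rose in PCOS (Prf1, Klrd1, Nkg7 and Cd2) and 3 fell in PCOS-MV against PCOS, with summed FPKM of 14.2 to 18.8, 20.9 to 33.8 and 12.2 to 23.0. Klrd1, counted in both, passed the expression filter only through its PCOS values. Its group means were 0.658 FPKM in control, 2.25 in PCOS and 0.845 in PCOS-MV, so its calls add no support. Perforin (Prf1) was at 1.28, 1.32, 1.31 and 1.56 FPKM in control, 2.29, 3.57, 3.56 and 4.22 FPKM in PCOS and 1.32, 1.76, 1.76 and 1.05 FPKM in PCOS-MV libraries.

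Of 13 macrophage markers 2 rose in PCOS, against 11.9% of all tested genes that rose. They were Csf1r (0.45 ± 0.089 SE, adjusted p = 0.00646) and Adgre1 (0.49 ± 0.10 SE, adjusted p = 0.00737). In PCOS-MV against PCOS 3 rose and 2 fell. The median log2 fold change of the 13 markers in PCOS against control was 0.02. Their summed FPKM was 347 to 503 in control, 399 to 453 in PCOS and 451 to 669 in PCOS-MV libraries. Of 6 dendritic cell markers 2 fell and 0 rose in PCOS and 0 were called in PCOS-MV against PCOS, with summed FPKM of 23.0 to 27.9, 16.5 to 23.1 and 21.0 to 26.6. Only 2 of 7 B cell markers could be tested, and their log2 fold changes had opposite signs in both comparisons. Cd79al was at 5.68, 3.85, 3.61 and 3.87 FPKM in control, 20.1, 16.2, 10.8 and 16.1 FPKM in PCOS and 5.58, 6.26, 3.40 and 0 FPKM in PCOS-MV libraries (1.66 ± 0.19 SE, adjusted p = 3.53e-04, in PCOS), and it fell in PCOS-MV against PCOS, with replicate 4 listed at 0. Blnk gave -0.62 ± 0.22 SE, adjusted p = 0.0717, in PCOS and rose in PCOS-MV against PCOS (0.54 ± 0.099 SE, adjusted p = 0.00559). The sums of the B cell markers (7.26 to 10.3, 13.3 to 23.1 and 4.05 to 10.5) followed Cd79al, and the untested Ms4a1 and Pax5 were also listed at 0 in some libraries. Endothelial markers fell in PCOS in 5 of 5 genes, and 3 rose in PCOS-MV against PCOS (sums of 104.5 to 133, 60.5 to 76.7 and 86.8 to 129).

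Theca and interstitial markers rose in 3 and fell in 1 of 5 tested genes in PCOS, and their sums went from 113 to 152 FPKM in control to 1695 to 3182 in PCOS and 107 to 192 in PCOS-MV libraries, with Cyp17a1 and Insl3 among them, an androgen-making enzyme and a theca hormone. Against PCOS 4 of the 5 fell in PCOS-MV. Granulosa markers rose in 4 of 7 genes in PCOS and 3 fell in PCOS-MV against PCOS. Their sums were 637 to 870.4 in control, 1079 to 1533 in PCOS and 582 to 1105 in PCOS-MV libraries. Inha alone gave 388 to 540 FPKM in control, 676 to 988 in PCOS and 453 to 659.5 in PCOS-MV libraries. Amh (-0.81 ± 0.295 SE, adjusted p = 0.0738) and Hsd17b1 (-0.23 ± 0.22 SE, adjusted p = 0.477) went the other way in PCOS without passing the test. Luteal markers fell in 6 of 8 genes and rose in 1 in PCOS, and in PCOS-MV against PCOS 4 rose and 1 fell, with sums of 8084 to 9757 in control, 2449 to 4295 in PCOS and 5079 to 12000.0 in PCOS-MV libraries. Of 5 oocyte and 5 smooth muscle markers and 1 neutrophil marker 0 were called in either comparison. Both tested adipocyte markers fell in PCOS and 0 were called in PCOS-MV against PCOS (sums of 5.27 to 36.1, 0.691 to 3.85 and 1.09 to 2.03). One of them, Cidec, passed the filter only through its control values (means of 3.03 FPKM in control, 0.109 in PCOS and 0.127 in PCOS-MV). Cd4 rose in PCOS and fell in PCOS-MV among 7 T cell coreceptor and costimulation genes, and no oviduct marker passed the filter. The part of each of these cell types in the change of the class I pathway was not tested, and cell composition and group cannot be told apart in these 12 libraries.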

How the data were processed

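Ovary RNA was sequenced from 12 rats, 4 per group, as NEBNext Ultra libraries. The authors deposited 1 table of FPKM values with a line per transcript and the gene's value repeated on each line, and 1 line per gene id was kept (19730 genes of 26928 lines). The study's methods name HISAT2 v2.0.5 and featureCounts, whereas the submitters' processing notes name STAR 2.5.1b and HTSeq 0.6.0, so the counter's handling of reads shared by RT1 copies is not settled. The authors' group means, fold changes and p-values in the same table were not used. Every gene averaging 1 FPKM or more across the 12 libraries was tested with limma 3.58.1 (R 4.3.3, lmFit, eBayes with trend) on log2(FPKM + 1), 2 groups at a time, with Benjamini-Hochberg adjustment and a threshold of 0.05, after the script had been tested on simulated data. Depth is unknown, so no counting interval is given. Intervals are 95% limma intervals. The members, the pathway and marker lists and the rules for naming genes (every member outside RT1, every RT1 gene tested, and the genes of a list with the smallest adjusted p) were chosen with earlier results of these data known. Ptprc, Cxcl10, Cd2, Psmb5, Psmb6, Ifng, Rfx5 and Creb1 were named for context after their values were seen. Single values of 1 interferon signalling gene are not reported here. Each library is 1 rat, and p-values measure the spread between rats. Replicate numbers are not stated to pair rats, and no block was used. Alternatives were other pseudocounts, filters, scalings, models, a fold limit and each library left out. Promoters came from RefSeq (GRCr8), and none was given for RT1-M2, RT1-CE7, RT1-DMb, Ciita and Nlrc5.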

Additional observations from a re-analysis of the deposited data

Results flagged for a closer look

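In 102 groups of 4 libraries (34 members in 3 groups), 1 library lay apart from the other 3 by Dixon's test in 7, where chance gives about 5.1. Values are FPKM. RT1-Ba was at 12.5 in PCOS replicate 4 (others 30.4 to 33.6), a library that was also the lowest of its group in most class II pathway genes. RT1-DMb was at 0.721 in control replicate 4 (others 6.97 to 7.90) and at 7.19 in PCOS-MV replicate 3 (others 9.57 to 10.03). Ciita was at 1.69 in PCOS-MV replicate 4 (others 2.28 to 2.40). RT1-S3 was at 33.4 in PCOS-MV replicate 2 (others 18.9 to 19.5), RT1-T24-1 at 9.99 in control replicate 2 (others 6.60 to 6.88) and RT1-CE7 at 50.95 in PCOS replicate 2 (others 25.8 to 27.3).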

How the results depend on the processing

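With a change of at least 2-fold also required, 8 members rose in PCOS against control and 5 fell in PCOS-MV against PCOS. With each library left out in turn, 12 to 15 members rose in the first comparison, 8 to 15 fell in the second, and 0 were called between PCOS-MV and control. Under the other alternatives (pseudocount 0.1, no filter on low values, a minimum mean of 5 FPKM, 1 model for 12 libraries, libraries rescaled by their median ratio, genes listed at 0 left out) 13 to 15 rose and 8 to 10 fell of the members tested here. Without the filter 13 rose and 8 fell (RT1-CE10, Tapbp, RT1-N2 and Tap1 lost), and RT1-DOa, which the filter had left out, was called lower in PCOS-MV against PCOS. No call of a member changed direction. With the replicate block 14 rose and 12 fell (RT1-CE10 lost, RT1-S3 and Tapbp gained). Deviations of same-numbered rats correlated at -0.033 to 0.216, so the numbers were not taken to pair the rats. In 1 model for 12 libraries RT1-A2 in PCOS-MV against PCOS gave an adjusted p of 0.1035, where its other alternatives kept the call. Depth in reads is unknown, and the division of reads among RT1 copies, which bears on single chains, was not tested.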
